A study of Rattus norvegicus with 4 samples.

Results

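The unfolded protein response of the endoplasmic reticulum was followed through 10 genes: Hspa5, Hsp90b1, Calr, Pdia3, Pdia4, Pdia6, Xbp1, Atf4, Ddit3 and Sel1l. They were taken as a list that was chosen with earlier results of these data known. Every probe set that the platform's annotation assigns to one of these symbols alone was taken. This gave 11 probe sets for the 10 genes, of 10411 genes with such a probe set on the array. All 11 were bright enough to be tested. Pdia3 had 2 probe sets, and the one with the higher mean signal stands for the gene. RNA came from visceral fat of male Wistar rats, 130 days of age, on 4 single-colour arrays. The titles name 2 arrays control and 2 obese, and no label gives a diet, genotype, treatment or cause of obesity for either group. The descriptions speak of a rat in the singular, but no label says that the 2 arrays of a group come from separate animals. The p-values therefore measure only how far these samples scatter, and that scatter may be technical.

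The endoplasmic reticulum folds secreted and membrane proteins, and its capacity is matched to the load by 3 membrane sensors. PERK (Eif2ak3) slows translation and favours synthesis of the transcription factor ATF4, which in turn drives CHOP, the product of Ddit3. IRE1 (Ern1) splices the mRNA of Xbp1 into the form that encodes an active transcription factor, and ATF6 is released from the membrane by cleavage. XBP1 and ATF6 are known to drive the chaperones, the disulfide isomerases and the machinery that returns misfolded proteins to the cytosol for degradation. Adipocytes secrete adipokines and lipoprotein lipase, and this response has been studied widely in fat of obese animals. The arrays measure mRNA, so neither the splicing of Xbp1 nor the translation of Atf4 is seen in these data.

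The arrays had been brought to a common scale, with 2% trimmed means of 150.026 to 150.03, and their median signals ran from 74.9 on obese replicate 2 to 82.9 on control replicate 1. Obese replicate 2 had a wider spread of signals: against the control mean, its median log2 difference was -0.14 in the dimmest 25% of tested probe sets and 0.04 in the brightest 25%. Adipocyte markers, Lpl, Fabp4, Lipe, Lep, Pparg and Plin1, were above the floor on all arrays, with summed signals of 8448 to 8888 in control and 8752 to 10977 in obese samples. Obese replicate 1 stood apart by genes of the exocrine pancreas, such as the amylase Amy2a3 which read 531.8 there and at most 3.3 elsewhere. Not all such markers were highest there. Cpa1 read 622.5 on control replicate 2 against 197 on obese replicate 1, and Cela1 read 207.8 against 166.2. The summed signal of 10 such markers was 2538 on obese replicate 1, 261.7 on obese replicate 2, and 356.8 and 952.3 on the control arrays. The sum of 5 mesothelium markers was also highest on obese replicate 1, 1629, the others lying between 366.2 and 949.4. The differences of the 10 genes, and of some of the others named, are therefore given also without it. Macrophage markers had lower sums in obese samples, 7241 and 7276, than in control samples, 10014 and 11648. Of their 10 measured genes 8 lay lower on both obese arrays (80%, against 24% of all tested genes). Markers of T and B lymphocytes had sums of 740.6 and 619.3 in obese and of 1558 and 1094 in control samples. Of the 7 tested genes 7 had lower means, as had 5103 of all 9011 tested genes, and their median log2 difference was -0.76. On both obese arrays 4 of the 7 lay lower (57.1%, against 24%). Cd4 was the brightest of them, with 569.1 and 540.8 in control and 303.2 and 270.1 in obese samples. For Cd3d and Cd3g the groups overlapped, and only control replicate 1 was high. Cd3d read 77.7 there and 26.2 on control replicate 2, against 28.8 and 23.3 in obese samples. Cd3g read 150.8 and 65.3, against 74.3 and 70. Here and below, fewer cells of a type cannot be told apart from less RNA per cell.

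Among the 10 genes, the groups were apart for 4. The stress transcription factors Ddit3 and Atf4 had higher signals on both obese arrays, by 1.69-fold and 1.31-fold, and Xbp1 and the degradation gene Sel1l had lower signals on both, by 1.26-fold and 1.24-fold. For the 3 chaperones and the 3 disulfide isomerases the groups overlapped in the main probe sets, with log2 differences between -0.12 and 0.28. None of the 10 passed limma's moderated test over all probe sets at an adjusted p of 0.05 (adjusted p between 0.467 and 0.962), and of the 12929 probe sets tested 0 passed, which is 0%, while 1073 had an unadjusted p below 0.05. The 2 genes higher and 2 lower are each 20% of 10, where of all tested probe sets 15.6% had both obese values above both control values and 24.4% had both below. After centring the arrays on their medians these shares were 21.8% and 16.9%, with the same 4 genes apart. The share of the 10 genes that was apart is thus near that of all probe sets in either direction. Their median log2 difference was 0.11, against -0.04 over all tested probe sets. It was 0.03 after quantile normalization (all probe sets -0.0047), where Calr too was lower on both obese arrays, 0.06 after cyclic loess, 0.19 after median centring, and 0.04 with the mean of a gene's probe sets. Leaving out obese replicate 2 gave a median of -0.03, and leaving out obese replicate 1 gave 0.24. With obese replicate 1 left out, 6 of the 10 genes lay above and 2 below both controls on the remaining obese array (28.7% and 46% of all probe sets), and with obese replicate 2 left out 2 lay above and 5 below (32.1% and 36.1%).

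**Figure D1:**
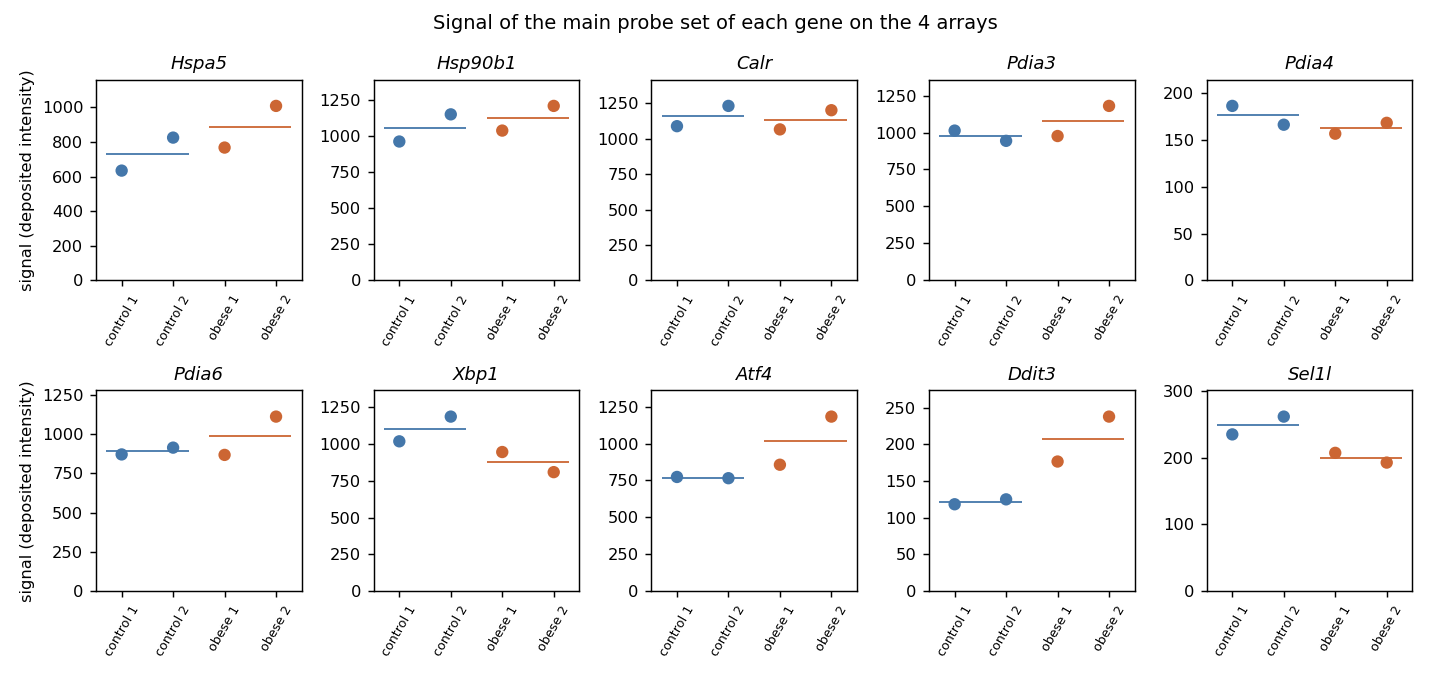
Signal of the main probe set (deposited intensity, linear axes from 0) on control replicates 1 and 2 (blue) and obese replicates 1 and 2 (orange) for each of the 10 genes; horizontal lines are group means over 2 arrays. Both obese points lie above both control points for Ddit3 and Atf4 and below them for Xbp1 and Sel1l, and in the other panels the groups overlap.

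Ddit3 encodes CHOP, a transcription factor of prolonged stress that is known to restrain adipocyte differentiation by pairing with C/EBP proteins. Its probe set (1369590_a_at) gave signals of 118.4 and 125.1 on the control arrays and of 176.7 and 238 on the obese arrays. Both obese values were above both control values, and the gap between the groups was wider than the distance between the control arrays. In these linear signals it was narrower than the distance between the obese arrays. Against the control mean in log2, the gap ran from 0.04 to 0.54 and the obese arrays from 0.54 to 0.97. On that scale the gap was slightly wider. The means were 122 ± 4.74 (SD, n = 2) in control and 207 ± 43.3 in obese tissue, a log2 difference of 0.75 ± 0.19 (SE; 95% interval 0.29 to 1.22; limma adjusted p = 0.467). This was the largest difference in either direction among the 10 genes. Leaving out obese replicate 1 gave 0.97 and leaving out obese replicate 2 gave 0.54, and it lay between 0.67 and 0.83 under the other scalings, floors and filters.

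Atf4, the transcription factor upstream of Ddit3 in the PERK arm, is controlled mainly at translation. Probe set 1367624_at read 773.4 and 765 in control samples and 856.3 and 1182.6 in obese samples. The control arrays were close together, and the obese arrays differed from each other more than obese replicate 1 differed from the controls. The log2 difference was 0.39 ± 0.18 (95% interval -0.06 to 0.83; limma adjusted p = 0.636), from 769 ± 5.94 in control to 1019 ± 231 in obese tissue (SD, n = 2). Without obese replicate 2 it was 0.15, and without obese replicate 1 it was 0.62.

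Xbp1 encodes the transcription factor of the IRE1 arm, whose unspliced and spliced mRNA this probe set (1371249_at) is not known to separate. Its signals were 1018.3 and 1186.4 on the control arrays and 945.5 and 808.7 on the obese arrays, so that both obese values were lower. The means were 1102 ± 119 and 877 ± 96.7 (SD, n = 2), a log2 difference of -0.33 ± 0.15 (95% interval -0.70 to 0.04; limma adjusted p = 0.631). The smallest gap between the groups, from 1018.3 to 945.5, was smaller than the distance between the arrays of either group. The difference was -0.44 without either control replicate 1 or obese replicate 1, and -0.22 without either of the others. Macrophages and lymphocytes express Xbp1 too, and the lower sums of both marker lists in obese samples are given above. Their part in the lower Xbp1 signal was not tested.

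Sel1l is the adaptor of the HRD1 ubiquitin ligase, through which misfolded proteins leave the endoplasmic reticulum, and in fat it is known to be needed for secretion of lipoprotein lipase. Probe set 1376073_at gave 235 and 261.7 in control and 207.3 and 192.7 in obese samples. Again both obese values lay below both control values. The means were 248 ± 18.9 and 200 ± 10.3 (SD, n = 2), a log2 difference of -0.31 ± 0.14 (95% interval -0.65 to 0.03; limma adjusted p = 0.623). It ran from -0.39 without control replicate 1 to -0.23 without control replicate 2, and was -0.36 without obese replicate 1. The whole-tissue level of lipoprotein lipase mRNA, Lpl, differed by 0.05 with overlapping groups.

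The chaperone BiP, encoded by Hspa5, binds unfolded chains and holds the 3 sensors inactive, and its mRNA is the usual readout of the response. Hspa5 (1370283_at) had signals of 634.4 and 825.2 in control samples and of 767.6 and 1008.5 in obese samples. Control replicate 2 exceeded obese replicate 1, so the groups overlapped. The log2 difference was 0.28 ± 0.20 (95% interval -0.21 to 0.77; limma adjusted p = 0.747), and it moved from 0.09 without obese replicate 2 to 0.48 without obese replicate 1. Hsp90b1, the chaperone GRP94 (1388331_at), gave 962.5 and 1150.8 in control and 1038.3 and 1209.4 in obese tissue, a log2 difference of 0.09 ± 0.16. In each group replicate 2 was the higher array, and the groups interleaved. Its sign turned without control replicate 1 (-0.04) and without obese replicate 2 (-0.02), and without obese replicate 1 it was 0.20. Calr, calreticulin, which folds glycoproteins and buffers calcium (1398750_at), gave 1088.7 and 1231.9 in control and 1066 and 1201.5 in obese tissue. The log2 difference was -0.03 ± 0.14 (95% interval -0.39 to 0.32), the smallest of the 10 in size, and after median centring of the arrays, and without obese replicate 1, it was 0.05.

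Hspa5, Hsp90b1, Calr and Xbp1 share a sequence that the other members with a promoter at hand do not. The RefSeq table (GRCr8) holds promoters, from 250 bases before to 50 bases after the gene's start, for 8 of the 10 genes, all but Pdia3 and Pdia6. The ER stress response element, ERSE, is CCAAT, bound by NF-Y, followed after 9 bases by CCACG, bound by ATF6 or XBP1. It was searched on both strands, and each match contains a CCAAT box. It occurred in 4 of the 8 promoters (50%) and in 21 of all 27457 promoters (0.0765%). The matches are shown in the orientation that reads CCAAT first, with both binding motifs in capitals, to show how alike they are between genes:
Hspa5, chr3:38452973-38452991, plus strand, from 43 to 25 bases before the start: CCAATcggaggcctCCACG
Hsp90b1, chr7:23012451-23012469, minus strand, from 176 to 158 bases before the start: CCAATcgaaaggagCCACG
Hsp90b1, chr7:23012347-23012365, plus strand, from 72 to 54 bases before the start: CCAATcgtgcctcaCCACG
Calr, chr19:40213135-40213153, minus strand, from 232 to 214 bases before the start: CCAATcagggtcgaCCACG
Xbp1, chr14:84604558-84604576, plus strand, from 65 to 47 bases before the start: CCAATcgcagacggCCACG

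The whole stretch of 250 bases before the start is shown for Hspa5, the standard reporter of the response, and for Xbp1, the member with this element whose groups were apart. Capitals mark CCAAT and CCACG of ERSE:
Hspa5, chr3:38452766-38453015, plus strand: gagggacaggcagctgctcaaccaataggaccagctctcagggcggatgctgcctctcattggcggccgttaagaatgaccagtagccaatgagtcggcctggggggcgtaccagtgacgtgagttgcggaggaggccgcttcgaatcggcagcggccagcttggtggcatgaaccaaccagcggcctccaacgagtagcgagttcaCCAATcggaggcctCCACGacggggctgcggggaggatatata
Xbp1, chr14:84604373-84604622, plus strand: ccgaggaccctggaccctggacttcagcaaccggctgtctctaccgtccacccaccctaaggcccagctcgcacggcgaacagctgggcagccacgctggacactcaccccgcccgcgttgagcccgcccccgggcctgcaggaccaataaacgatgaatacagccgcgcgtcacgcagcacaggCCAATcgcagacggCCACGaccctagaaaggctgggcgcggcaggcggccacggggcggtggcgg

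Genes with this element in their promoter did not share a direction on the arrays. Over the lists of the response described further on, 9 of 140 promoters (6.43%) held ERSE: those of Hspa5, Hsp90b1, Calr, Xbp1, Canx, Dnajc3, Creld2, Ero1b and Derl3. The log2 differences were 0.28, 0.09, -0.03 and -0.33 for the first 4, and 0.08, -0.06 and -0.05 for calnexin Canx, Dnajc3 and Creld2. Ero1b was at or under the floor on 2 arrays, and Derl3 had no probe set of its own here. Among these 8 measured genes, Xbp1 was the only one whose groups did not overlap. A second element, ERSE-II, ATTGG followed after 1 base by CCACG, was in 0 of the 8 member promoters and in 15 of all promoters (0.0546%). Of the listed genes it occurred in Hyou1, Dnajb11 and Herpud1, whose log2 differences were -0.75, -0.05 and -0.06. The UPRE core TGACGTGG was in 0 of the 8 and in 0.637% of all promoters. It occurred in 7 of 140 promoters of the lists (5%), those of Hyou1, Dnajc10, Ube2j1, Ube2g2, Vcp, Srp19 and Mapk8. The core of the site for ATF4 with a C/EBP protein, TGATG and AA separated by 1 base, was in 0 of the 8 and in 3.82% of all promoters. Over the lists it was in 10 of 140 promoters (7.14%). It was in 6 of 27 promoters of the PERK list (22.2%), 2 of 10 of the cell death list (20%) and 2 of 20 of the degradation list (10%). A missing match says only that these letters are not in this window.

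The protein disulfide isomerases form and rearrange the disulfide bonds of secreted proteins. Pdia3, which works with calnexin and calreticulin on glycoproteins (1398788_at), gave 1013.2 and 943.8 in control and 976.4 and 1180.2 in obese samples, a log2 difference of 0.13 ± 0.15. Only obese replicate 2 lay above the controls, and without obese replicate 1 the difference was 0.27. The dimmer Pdia3 probe set (1392920_at) read 71.8 and 76.6 in control and 71.2 and 62 in obese samples, a log2 difference of -0.16 ± 0.19, and so pointed the other way. Pdia6 (1370859_at), which is known to act on the sensor IRE1, gave 869.9 and 913.2 in control and 866.9 and 1110.8 in obese samples, a log2 difference of 0.14 ± 0.16. It was -0.04 without obese replicate 2, the highest array, and 0.32 without obese replicate 1. Pdia4 (1370007_at) gave 186.4 and 166.3 in control and 156.7 and 168.3 in obese samples, a log2 difference of -0.12 ± 0.15. It was -0.07 without obese replicate 1 and ran from -0.20 without control replicate 2 to -0.03 without control replicate 1. For all 3 main probe sets the groups overlapped and the limma adjusted p lay between 0.847 and 0.870. Their 95% intervals reached from -0.48 to 0.53 on the log2 scale, so these arrays leave room for a moderate change in either direction.

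**Figure D2:**
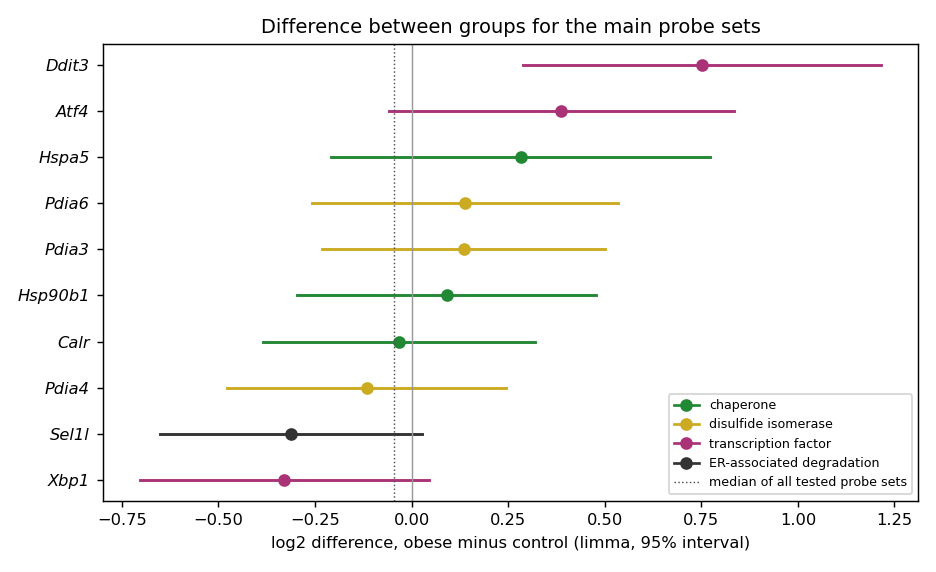
Log2 difference, obese minus control, of the main probe set of each gene (point) with the 95% interval of limma's moderated fit (line), coloured by role; the dotted line is the median of all tested probe sets, -0.04. The interval of Ddit3, 0.29 to 1.22, lies above 0, and the intervals of the other 9 genes include 0.

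A single array carried much of the pattern. Of the 10 genes, 6 had their highest signal on obese replicate 2, namely Hspa5, Hsp90b1, Pdia3, Pdia6, Atf4 and Ddit3, where that array was the highest for 22.5% of all tested probe sets. On the log2 scale and against the control mean, obese replicate 2 was at 0.97 for Ddit3, 0.62 for Atf4 and 0.48 for Hspa5, and at -0.44 for Xbp1. Obese replicate 1 was at 0.54, 0.15, 0.09 and -0.22 for the same genes, the same direction at a smaller size. Of the 10 genes, 7 are among the brightest 25% of probe sets, where obese replicate 2 ran high. Of those bright probe sets, 23.5% had both obese values above both controls and 20.4% had both below. Quantile normalization, which gives all arrays one distribution, left Hspa5 at 0.21 and Hsp90b1 at 0.011, and Ddit3 at 0.79.

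The ratio of Ddit3 to Hspa5 within an array does not depend on how that array was scaled as a whole. This pair was picked after its values were seen, so it is described without a test. On the log2 scale, with the control mean set to 0, the ratio was 0.15 and -0.15 on the control arrays and 0.45 and 0.49 on the obese arrays. The obese arrays were closer to each other in this ratio than in Ddit3 alone, at 0.54 and 0.97. The control arrays were further apart in it than in Ddit3 alone, at -0.04 and 0.04. Other ratios taken were further apart between the obese arrays. There Ddit3 over Xbp1 was 0.76 and 1.41, Atf4 over Xbp1 0.37 and 1.06, and Hspa5 over Sel1l 0.34 and 0.84.

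**Figure D3:**
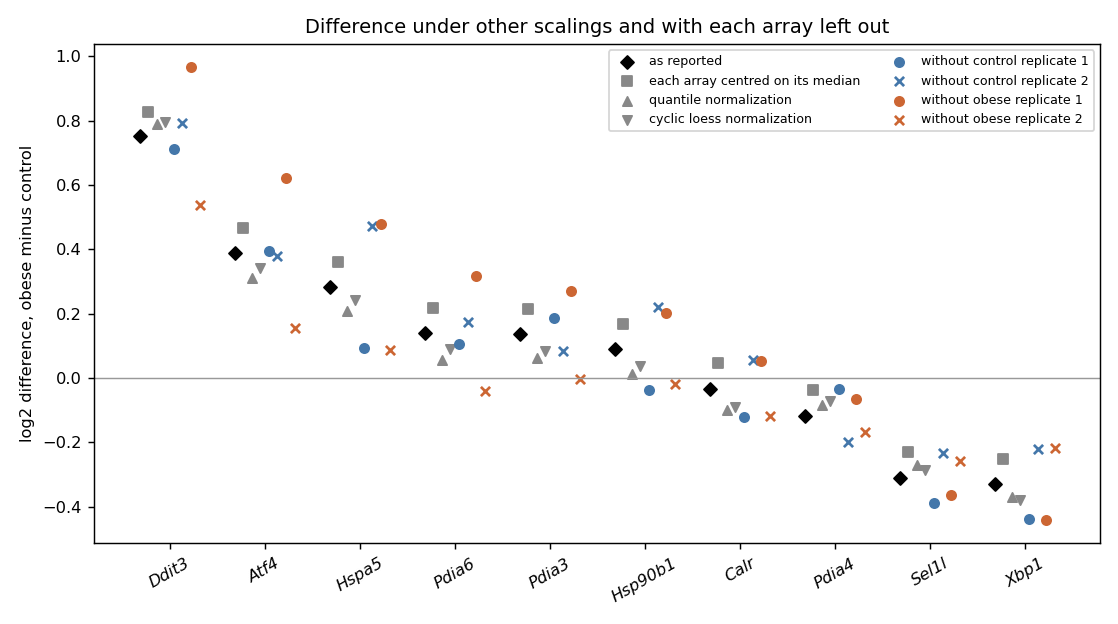
Log2 difference, obese minus control, of each gene as reported (black), under 3 other scalings (grey) and with each array left out in turn (blue and orange). Ddit3, Atf4 and Hspa5 stay above 0 and Pdia4, Sel1l and Xbp1 below 0 in all 8 settings drawn, and Pdia6, Pdia3, Hsp90b1 and Calr have points on both sides of 0.

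The wider response was read from 8 lists by role, with 144 of 163 genes on the array and 140 tested, members included. Of the 140, 0 passed limma's test over all probe sets (smallest adjusted p = 0.402); 6 higher and 5 lower genes had an unadjusted p below 0.05, as had 300 higher and 474 lower of all 9011 tested genes. Both obese arrays lay above both controls for 15% of the 140 and below for 18.6%, where over all 9011 tested genes the shares were 16.4% and 24%. The listed genes were thus not apart more often than genes at large. Their median log2 difference was -0.0057, against -0.04 over all tested genes. Centring the arrays on their medians turned the medians of the isomerase, degradation and glycan lists to 0.04, 0.05 and 0.05, and quantile normalization turned that of the IRE1 list to -0.0029. The genes named are the extremes of each list and a fixed set of sensors and classical targets. The lists were chosen with earlier results of these data known.

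In the list of the PERK arm and the integrated stress response, 26 of 29 genes were tested, 8 lay higher on both obese arrays (30.8%, against 16.4% of all tested genes) and 3 lower (11.5%, against 24%), with a median of 0.03. After median centring, 21.8% of all probe sets lay higher and 16.9% lower on both obese arrays. The difference between the list and the other genes was not tested. The median was 0.0043 without obese replicate 2 and 0.185 without obese replicate 1. The kinase PERK itself, Eif2ak3, was lower on both obese arrays, 160 and 131.7 against 123.3 and 116.9, a log2 difference of -0.27 ± 0.17. Leaving out control replicate 1 gave -0.13, and leaving out control replicate 2 gave -0.41. Cebpb, a C/EBP factor of adipogenesis and a partner of CHOP, gave 335 and 346.7 in control and 473.7 and 547.4 in obese samples, a log2 difference of 0.58 ± 0.13 (limma adjusted p = 0.457). The distance between its groups exceeded that within either, and without obese replicate 1 the difference was 0.68. Atf3, a stress factor that is also induced in immune cells, went the other way, from 89.5 and 121.4 to 69.3 and 37.2, a log2 difference of -1.04 ± 0.34 (limma adjusted p = 0.531), and was -0.59 without obese replicate 2 and -1.49 without obese replicate 1.

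Trib3, Asns and Ppp1r15a are other genes downstream of ATF4 or CHOP. Trib3, a pseudokinase, differed by 0.02, the asparagine synthetase gene Asns by -0.05, and Ppp1r15a, which reverses the translation block, by 0.02, and all 3 had overlapping groups in their main probe sets. A dimmer Trib3 probe set was at 0.14 with both obese values higher. The signs of all 3 genes turned when single arrays were left out. Besides Atf4, Ddit3 and Cebpb, the genes of the list higher on both obese arrays were Phgdh, of serine synthesis, at 0.68, the tRNA synthetases Wars1, Sars1 and Gars1 at 0.42, 0.30 and 0.15, and Fgf21 at 0.81. These 5 are named after their values were seen, and Fgf21 was dim, with 3 of its 4 signals at 22.2 to 29 against a floor of 20.8.

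Among 16 chaperones and co-chaperones of the endoplasmic reticulum, 2 lay higher (12.5%, against 16.4% of all tested genes) and 1 lower (6.25%, against 24%) on both obese arrays, with a median of 0.04 (-0.15 without obese replicate 2, 0.15 without obese replicate 1). Manf, a secreted stress protein, gave 269.7 and 300.5 in control and 331.9 and 380.7 in obese samples, a log2 difference of 0.32 ± 0.14, and of 0.42 without obese replicate 1. Hyou1, the nucleotide exchange factor of BiP, gave 127.6 and 189 in control and 90.5 and 93.8 in obese samples, a log2 difference of -0.75 ± 0.22 (limma adjusted p = 0.515). Its second probe set also had both obese values lower, at -0.47. Without control replicate 2 the main one gave -0.47, without control replicate 1 it gave -1.04, and without obese replicate 1 -0.73. Calnexin (Canx) and the BiP partners Dnajb9 and Dnajb11 differed by 0.08, 0.05 and -0.05, and of these Dnajb9 had its groups apart, by a narrow margin. The 3 probe sets of Canx gave 0.08, 0.14 and -0.29, and the groups overlapped in each.

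In the list of disulfide and proline isomerases, 19 of 20 genes were tested, 1 lay higher (5.26%) and 4 lower (21.1%) on both obese arrays, where the shares of all tested genes were 16.4% and 24%, and the median was -0.04. Pdia5, an isomerase known to act on ATF6, had the lowest value of all 8 lists: 129.2 and 218 in control against 70.3 and 56.1 in obese samples, a log2 difference of -1.42 ± 0.29 (limma adjusted p = 0.402). Without control replicate 2 it was -1.04, and without obese replicate 1 -1.58. Control replicate 2 held the highest Pdia5 and Hyou1 signals. It also held the highest sums of macrophage, fibroblast and endothelium markers, at 11648, 15954 and 1641. Control replicate 1 had 10014, 15150 and 1604.5, so the fibroblast and endothelium sums were close between the control arrays. The part of these cell types in both genes was not tested. Fkbp2, a proline isomerase, was higher, 366.3 and 466.3 against 617.1 and 907, a log2 difference of 0.86 ± 0.22 (limma adjusted p = 0.467), and of 1.13 without obese replicate 1. The abundant isomerase P4hb differed by -0.13, both obese values being lower, by -0.05 without control replicate 2 or after median centring, and by -0.21 without control replicate 1.

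Of 25 genes of degradation from the endoplasmic reticulum, 19 were tested, 2 lay higher (10.5%) and 4 lower (21.1%) on both obese arrays, and the median was -0.02. Both shares are below those of all tested genes, 16.4% and 24%. Beside Sel1l, the 4 included Edem2 and Edem1, mannosidase-like proteins that mark glycoproteins for disposal. Edem2 gave 157.4 and 181.5 against 127 and 102.5, a log2 difference of -0.57 ± 0.18, and Edem1 gave 262.1 and 311.8 against 234 and 223.9, a log2 difference of -0.32 ± 0.14 (limma adjusted p = 0.522 and 0.625). Without obese replicate 1 Edem2 was at -0.72, and without control replicate 2 Edem1 was at -0.195. The ligase Syvn1 (HRD1), the partner of Sel1l, differed by -0.02, and the stress-induced Herpud1 by -0.06, both with overlapping groups. Derl1, a channel component, differed by 0.27, by 0.15 without obese replicate 2 and by 0.39 without obese replicate 1. Its other probe sets gave 0.07 and 0.12 with overlapping groups.

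Sensors and their neighbours were measured in part. Ern1 (IRE1) and Atf6 had no probe set with that symbol alone and are not analysed here. In the IRE1 and translocation list, 26 of 29 genes were tested, 5 lay higher (19.2%) and 6 lower (23.1%), near the 16.4% and 24% of all tested genes, with a median of 0.03. Sec63 had the largest t, at 0.30, though its dimmer probe set gave -0.22, and the coat gene Sec24d had the smallest, at -0.30. In the ATF6 list 10 of 14 genes were tested, 1 lay higher (10%) and 3 lower (30%), with a median of -0.10. Creb3 was at 0.40 and Atf6b at -0.28. Of 15 tested genes of glycan transfer and the calnexin cycle, 1 lay higher (6.67%; Tusc3, 0.29, and 0.14 without obese replicate 1) and 3 lower (20%), among them the folding sensor Uggt1 at -0.51, with a median of -0.03. Of 9 tested genes of cell death under stress, 1 lay higher (11.1%) and 2 lower (22.2%), with a median of -0.10. Tmbim6 had the largest t there at 0.27 (0.15 without obese replicate 2 and 0.38 without obese replicate 1). Bcl2l1 had the smallest at -0.44 (-0.09 without obese replicate 1 and -0.80 without obese replicate 2). Without obese replicate 1 the medians of these 4 lists were 0.08, -0.185, 0.03 and -0.18, and without obese replicate 2 they were -0.05, 0.0026, -0.13 and -0.015.

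**Figure D4:**
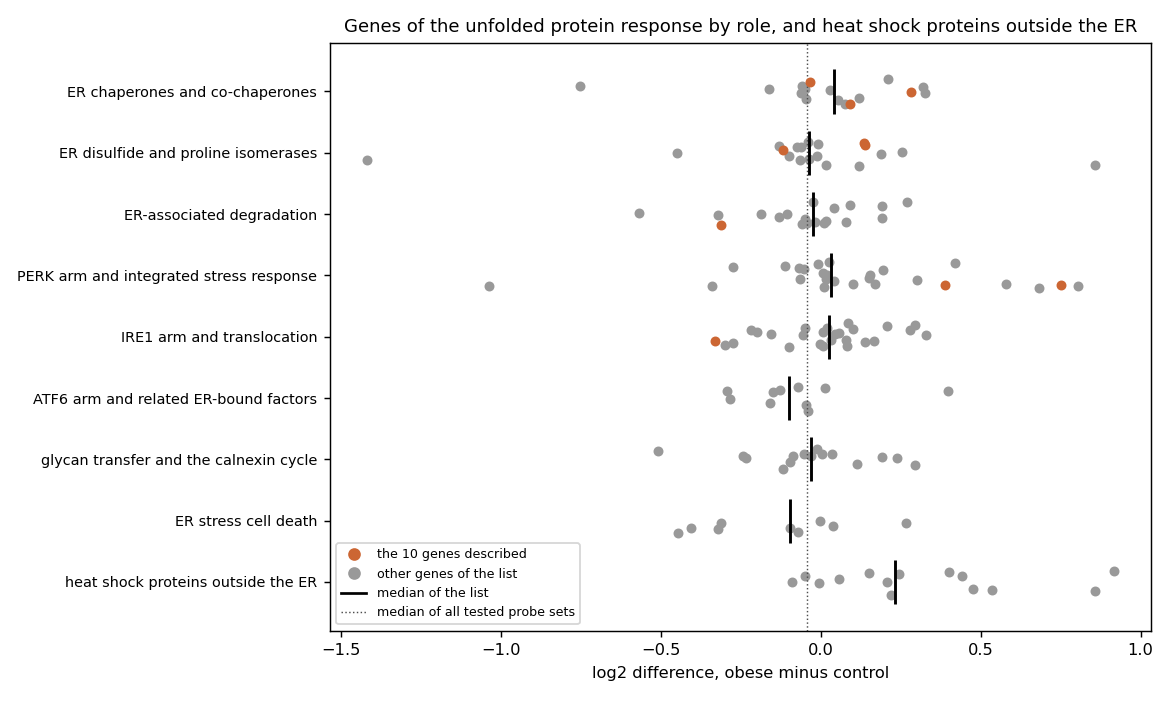
Log2 difference, obese minus control, of every tested gene in 8 lists of the unfolded protein response and in the heat shock proteins outside the endoplasmic reticulum (ER); the 10 genes described are orange, black bars are list medians and the dotted line is the median of all tested probe sets. Medians of the 8 lists lie between -0.10 and 0.04, and that of the heat shock proteins is 0.23.

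Heat shock proteins outside the endoplasmic reticulum, induced through the factor HSF1, were taken for comparison. This list too was chosen with earlier results of these data known. Of 14 tested genes of this list, which includes Hsf1 itself and the mitochondrial chaperonins Hspd1 and Hspe1, 9 lay higher on both obese arrays (64.3%, against 16.4% of all tested genes) and 0 lower (against 24%), and 0 passed limma's test over all probe sets. At an unadjusted p below 0.05 there were 4, all higher. The median was 0.23, with 0.38 without obese replicate 1 and 0.18 without obese replicate 2. With Hspd1 and Hspe1 left out, a choice made after seeing the data, 9 of 12 (75%) lay higher and 0 lower, with a median of 0.32. Hspa1a, the inducible HSP70, gave 271.9 and 270.8 in control and 517.4 and 507.3 in obese samples, a log2 difference of 0.92 ± 0.12 (limma adjusted p = 0.269), and Hspa4 differed by -0.09. The HSP70 of the endoplasmic reticulum, Hspa5, differed by 0.28 with overlapping groups. Whether this list differs from the chaperones of the endoplasmic reticulum was not tested.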

How the data were processed

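Visceral fat RNA was measured on 4 single-colour arrays, 2 control and 2 obese per the labels. The authors deposited 1 linear signal intensity per probe set and array. Scanner, software and normalization: not given in the sources used here. Of 15923 probe sets, 57 controls were left out. A single symbol was carried by 12783, and 12748 of these were looked up by gene ID in a GRCr8 table, which changed 0. Signals under 20.8 (the 20th percentile) were set to that floor before taking log2, and probe sets with at least 2 arrays over it entered the test. limma 3.58.1 in R 4.3.3 (lmFit, eBayes with trend, 5.83 degrees of freedom) compared obese with control in a two-sided test, and p-values were adjusted by Benjamini-Hochberg over 12929 probe sets at a threshold of 0.05. The code was tested on simulated data. Errors of log2 differences are moderated standard errors, and intervals are 95%. Lists are described by counts and medians. Named genes were all members, the largest and smallest t of each list, any listed gene past the threshold, and a fixed set of sensors and targets. Members and lists were chosen with earlier results of these data known. Alternatives were 3 scalings, other floors, a pseudocount of 20, other filters, no variance trend, a replicate block, each array left out, and the mean of a gene's probe sets. The number of arrays limits precision.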

Additional observations from a re-analysis of the deposited data

How the results depend on the processing

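With 2 arrays per group, precision is limited throughout, and no detection call was at hand. None of the 10 genes, and none of the 140 listed genes, passed limma's test in any of the 15 alternatives. Over all probe sets, 0 passed as reported, 3 with a pseudocount in place of the floor, 6 with no filter on dim probe sets and 1 without the variance trend. The titles' replicate numbers are shared between groups, but deviations of same-numbered arrays correlated only with r = 0.0482; with the replicate number as a block, 0 probe sets and 0 of the 10 genes passed. Ddit3, Atf4, Hspa5, Pdia4, Xbp1 and Sel1l kept their direction in all 15 alternatives. The median of the 10 genes ranged from -0.03 to 0.24 over the arrays left out.

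Signs turned as follows, and the cause was not tested. After median centring Calr was 0.045, Asns 0.0276, Dnajb11 0.0279, Herpud1 0.0196 and Syvn1 0.0542. With quantile normalization Canx was -0.00387 and Syvn1 0.00956, and with cyclic loess Syvn1 was 0.0188. With the mean of a gene's probe sets, Pdia3 was -0.012 and Canx -0.0258. With arrays left out in turn, members ranged as follows: Calr from -0.122 to 0.0559, Hsp90b1 from -0.0384 to 0.219, Pdia3 from -0.00219 to 0.271 and Pdia6 from -0.04 to 0.318. Other genes whose sign turned were Asns from -0.308 to 0.206, Canx from -0.138 to 0.289, Dnajb11 from -0.258 to 0.157, Herpud1 from -0.355 to 0.237, Hspa4 from -0.255 to 0.0784, Ppp1r15a from -0.107 to 0.143, Syvn1 from -0.127 to 0.0784 and Trib3 from -0.162 to 0.202.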
